A study of Homo sapiens with 7 samples.

Results

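Genes of the interferon response and of nucleic acid sensing were followed in human cardiomyocytes that had been given an antisense oligonucleotide (ASO). An ASO is a short designed strand that binds one RNA by base pairing, often to have it degraded. The group comprised 39 genes, selected by gene symbol from the 60234 rows of the deposited expression table, and each symbol matched 1 row. The cells were grown from WTC-11, an established line of human induced pluripotent stem cells, so every library comes from a single genetic background. They had been matured for 35 days and were then kept with 2 uM of ASO for 96 h, which the labels call passive treatment. One group received a scrambled ASO (3 libraries) and the other an ASO against MYH7B (4 libraries, of which 3 were compared). No label says whether libraries of a group came from separate differentiations, so p-values measure only the spread between these libraries. Both groups had received an ASO and no library of cells without one was included, so a response common to both ASOs cannot be seen in this comparison.

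Type I interferons are secreted proteins that cells release when they detect foreign or misplaced nucleic acid. They bind the receptor chains IFNAR1 and IFNAR2, whose kinases JAK1 and TYK2 phosphorylate STAT proteins such as STAT2, and these join IRF9 to bind a promoter sequence, the interferon-stimulated response element, in front of antiviral effector genes. Upstream of this loop, RNA and DNA are detected by endosomal receptors such as TLR3 and TLR9, by cytosolic RNA helicases such as IFIH1, which signal through MAVS, and by the DNA sensor CGAS, which signals through STING1. Oligonucleotide drugs are nucleic acids themselves, and some can be detected by these receptors.

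Levels are given as TPM, a read abundance per transcript length scaled to 1000000 in each library, which allows levels of different genes to be compared but keeps no record of sequencing depth. MYH7B, the target, had 23.0, 36.5 and 25.1 TPM in scrambled ASO replicates 1 to 3 and 9.30, 5.65 and 6.31 TPM in MYH7B ASO replicates 2 to 4. Its difference in log2(TPM + 1) was -1.85 (limma adjusted p = 0.0109), and this call was lost without MYH7B ASO replicate 4 (-1.79, limma adjusted p = 0.0618). MYH7B ASO replicate 1 stands in the table in a row order of its own. It was left out of the comparison and is quoted, after reordering, only where stated. Mitochondrially encoded genes took 27.4% of TPM in scrambled ASO replicate 3 and 31.2% to 33.6% in the other 5 libraries compared. They took 17.2% in MYH7B ASO replicate 1, which leaves a larger share of TPM to all other genes there, and MYH7B was 1.29 TPM in it. All 8 cardiomyocyte markers were above 1 TPM, and they summed to 9496 to 10649.5 TPM with the scrambled ASO and 8083 to 10335 TPM with the MYH7B ASO. Of 6 immune cell markers, 2 (LYZ and AIF1) reached a mean of 1 TPM, PTPRC was listed at 0 in all 6 libraries, and the list summed to 8.59 to 13.4 TPM with the scrambled ASO and 5.07 to 6.74 TPM with the MYH7B ASO. Of 5 endothelial markers 2 reached 1 TPM, and VWF, CDH5 and PECAM1 did not. Markers of fibroblasts summed to 2874 to 5162 TPM with the scrambled ASO and to 1332 to 2053 TPM with the MYH7B ASO. The 4 smooth muscle markers summed to 934 to 1330 TPM and to 543 to 723 TPM. Both sums were lower in every MYH7B ASO library, but not every marker was. The fibroblast marker PDGFRA had 19.8, 27.8 and 23.5 TPM with the scrambled ASO and 41.1, 32.9 and 34.8 TPM with the MYH7B ASO, and the smooth muscle marker CNN1 had 172, 168 and 205 TPM against 224, 228 and 192 TPM. In bulk RNA, fewer cells of a type and less RNA per cell cannot be told apart, and the part of other cells in the results below was not tested.

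The 39 genes differed widely in level in both groups. The gene with the highest mean over the 6 libraries was IFITM3, an interferon-inducible membrane protein that blocks virus entry, at 718 TPM. B2M, the invariant light chain of HLA class I molecules, followed at 448 TPM. In all, 18 genes averaged 10 TPM or more. At the low end were classical markers of an ongoing interferon response. OAS2, one of the enzymes that make 2′-5′ oligoadenylate when they bind double-stranded RNA, was listed at 0 in all 6 libraries. Its relative OAS1 was listed at 0 in 5 libraries and at 0.0545 TPM in MYH7B ASO replicate 4. Within the effectors, then, a few genes were abundant while the OAS family, IFI44, IFI44L and MX1 each averaged less than 1 TPM, with single libraries up to 1.69 TPM (MX1) and 1.59 TPM (IFI44).

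**Figure D1:**
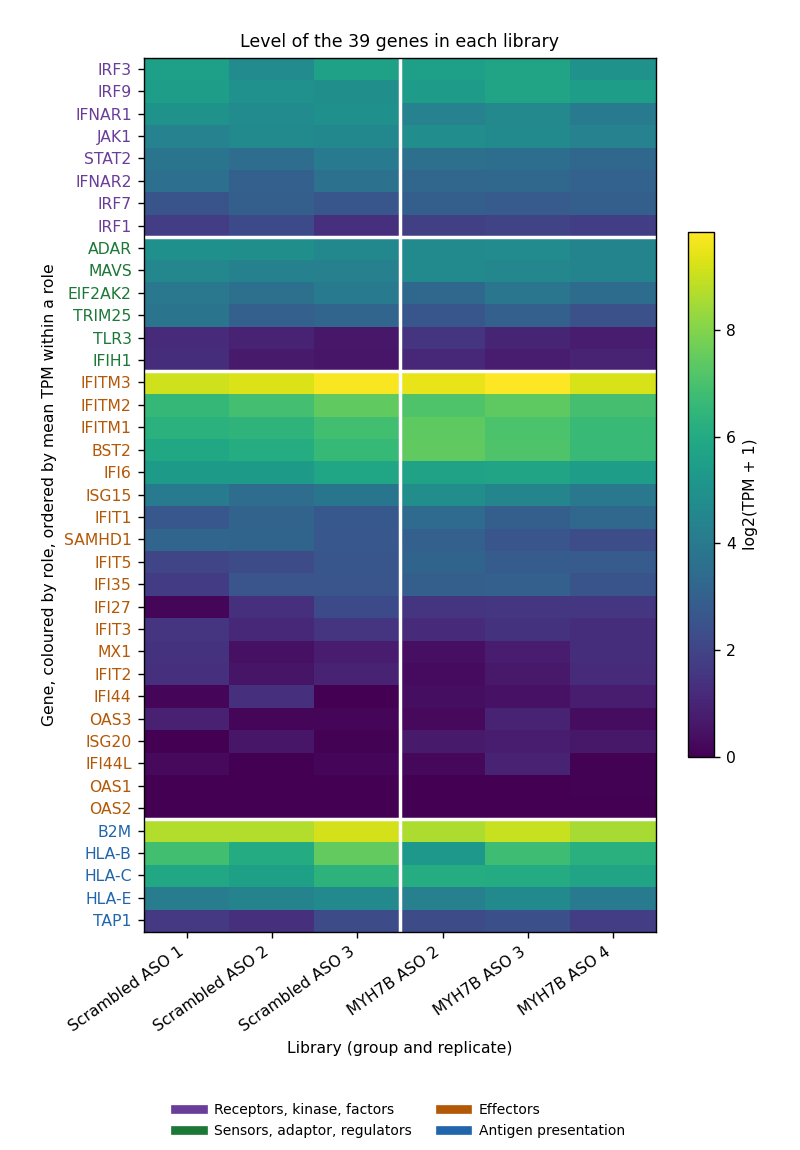
Level of the 39 genes as log2(TPM + 1) in each of the 6 libraries compared, with rows grouped and coloured by role and ordered by mean TPM. IFITM3 and B2M are the brightest rows in every library, while OAS1 and OAS2 are dark in both groups.

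Genes that averaged 1 TPM or more in the libraries compared were tested, which took in 30 of the 39. The 9 genes left out were IFIH1, IFI44, IFI44L, IFIT2, ISG20, MX1, OAS1, OAS2 and OAS3. The genes nearest to the limit were MX1 (0.878 TPM) and IFIH1 (0.890 TPM) below it and TLR3 (1.05 TPM) and IFIT3 (1.52 TPM) above it. None of the 30 tested genes was called, meaning a limma adjusted p under 0.05, against 1.66% of all 15988 tested genes (265, of which 29 were higher and 236 lower with the MYH7B ASO). The count over all genes depended on the libraries: leaving out each one lowered it, to 53 without MYH7B ASO replicate 4, 97 without scrambled ASO replicate 1, 107 and 116 without MYH7B ASO replicates 2 and 3, and 133 and 149 without scrambled ASO replicates 3 and 2. No interferon or sensing gene was called in any of those 6 fits. At an unadjusted limma p under 0.05 there were 5 of 30 (16.7%), 3 higher (BST2, ISG15 and IFIT5) and 2 lower (IFNAR1 and TRIM25). The background at that level was 15.2% of all tested genes, so the share of these genes in both directions together was near it. By direction the background was 4.67% higher and 10.6% lower, beside 3 and 2 of these 30 genes. The groups did not overlap for 3 of the 30 (10%), against 21.2% of all tested genes. BST2 and IFIT5 were the 2 of these that were higher, where the background was 7.11%, and IFNAR1 the 1 that was lower, where it was 14.1%. The authors' deposited table, made with DESeq2 per the submitters' processing notes, held an adjusted p-value for 32 of the 39 genes. It called 2 of them (6.25%, against 8.71% of all 15527 genes with one), both higher (BST2 and IFIT5, against 3.02%), and 0 lower (against 5.69%).

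The spread of the estimates sets how large a change could have been missed. For 20 of the 30 genes the 95% interval of the difference lay within -1 and 1 on the log2(TPM + 1) scale. At high levels that span is less than a doubling or halving, while for low genes it allows larger changes in TPM. The highest upper limit was 1.46, for BST2, and the lowest lower limit was -1.71, for HLA-B. The median difference over the 30 genes was 0.14, beside -0.04 over all tested genes. By role, the median was 0.11 for the 8 receptor, kinase and transcription factor genes, -0.18 for 5 sensors and regulators, 0.36 for 12 effectors and -0.04 for 5 antigen presentation genes. Estimates were above 0 for 10 of the 12 tested effectors, for 19 of the 30 genes in all and for 45.2% of all tested genes.

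**Figure D2:**
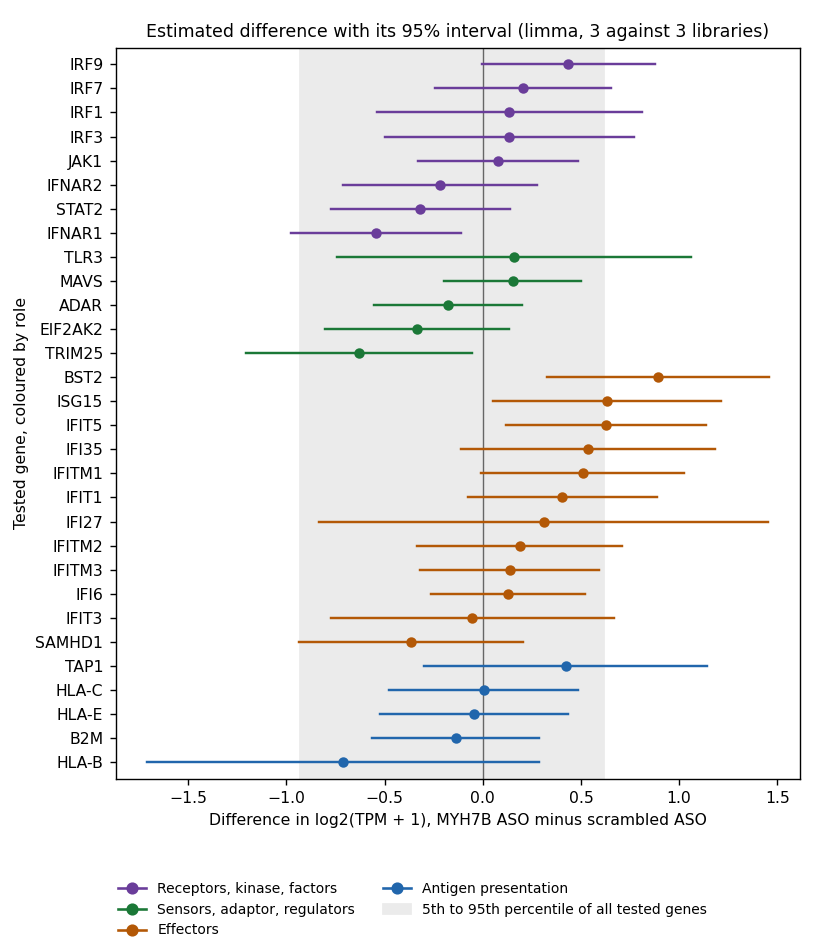
Difference in log2(TPM + 1), MYH7B ASO minus scrambled ASO, for the 30 tested genes, with points for the limma estimate and bars for its 95% interval from 3 against 3 libraries. The grey band spans the 5th to 95th percentile of all tested genes (-0.93 to 0.62). BST2 has the highest estimate (0.89) and HLA-B the lowest (-0.71), and most intervals cross 0.

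The receptor and its signalling chain were expressed in every library, while their ligands were at or near 0. Of 11 interferon genes examined, 8 were listed at 0 in all 6 libraries: IFNA1, IFNA2, IFNA5, IFNA8, IFNB1, IFNG, IFNL1 and IFNL2. IFNE was listed at 0.614, 0 and 0.177 TPM with the scrambled ASO and at 0 in the 3 MYH7B ASO libraries compared. IFNK was listed at 0 with the scrambled ASO and at 0.0981, 0.226 and 0.208 TPM with the MYH7B ASO. IFNL3 was listed at 0 with the scrambled ASO and at 0.130, 0.484 and 0 TPM with the MYH7B ASO. All 11 were below the limit for testing. IFNAR1 (chromosome 21, positions 33324477 to 33359862), the lower-affinity receptor chain, had 31.4, 25.5 and 29.6 TPM with the scrambled ASO and 19.6, 24.0 and 15.4 TPM with the MYH7B ASO. All 3 MYH7B ASO libraries lay below the lowest scrambled ASO library. Its difference of -0.54 (standard error 0.19) did not pass (limma adjusted p = 0.222, unadjusted p = 0.0199). IFNAR2, the higher-affinity chain, had 11.1, 7.03 and 11.7 TPM against 8.50, 8.72 and 7.46 TPM, and its groups overlapped (difference -0.22, 95% interval -0.71 to 0.27). JAK1 ranged from 19.5 to 25.2 TPM and from 19.7 to 27.2 TPM in the same groups, a difference of 0.08 (95% interval -0.33 to 0.48).

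Among the factors that carry the signal to the nucleus, IRF9, the DNA-binding partner of STAT2, had 44.5, 30.5 and 28.5 TPM with the scrambled ASO and 42.2, 52.1 and 44.7 TPM with the MYH7B ASO. A single scrambled ASO library reached into the range of the other group, and the difference of 0.44 did not pass (limma adjusted p = 0.333). STAT2 had 12.8, 10.5 and 16.2 TPM against 11.3, 10.7 and 8.79 TPM (difference -0.32, 95% interval -0.78 to 0.14). IRF3, which sensors activate to switch on interferon genes, had 45.2, 25.7 and 48.1 TPM against 46.4, 52.0 and 30.9 TPM. IRF7, the factor that amplifies interferon production and is itself interferon-induced, had 5.65 ± 1.09 and 6.61 ± 0.460 TPM (SD, n = 3 each). IRF1 was low in both groups, at 1.49 to 3.57 TPM and 2.55 to 3.04 TPM. The groups overlapped for each of these factors.

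The sensors of RNA were present at low levels and their adaptor at a higher one. TLR3, which binds double-stranded RNA in endosomes, had 1.29, 0.905 and 0.568 TPM with the scrambled ASO and 1.80, 1.03 and 0.677 TPM with the MYH7B ASO. IFIH1, also called MDA5, had 1.43, 0.654 and 0.500 TPM against 1.12, 0.678 and 0.961 TPM and was below the limit for testing. For both sensors the spread within a group was as wide as any gap between groups. MAVS, the mitochondrial adaptor of the RNA helicases, had 22.4, 19.1 and 18.7 TPM against 24.2, 22.4 and 20.6 TPM, a difference of 0.15 (95% interval -0.20 to 0.50).

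The 3 regulators and RNA-binding enzymes had estimates below 0 on the log2 scale, and none passed. TRIM25 (chromosome 17, positions 56836387 to 56914080), a ubiquitin ligase that activates the RNA helicase DDX58, had 12.6, 7.06 and 8.32 TPM with the scrambled ASO and 5.26, 7.06 and 4.47 TPM with the MYH7B ASO. The groups met at 7.06 TPM, and the difference of -0.63 did not pass (limma adjusted p = 0.287, unadjusted p = 0.0356). In the annotation used here TRIM25 overlaps several genes, including DGKE on the other strand, and whether the counting used strand is not given in the sources used here. EIF2AK2, the kinase PKR that halts translation when it binds double-stranded RNA, had 14.4, 11.3 and 15.9 TPM against 8.88, 13.3 and 10.2 TPM (difference -0.34, 95% interval -0.80 to 0.13). ADAR, which edits double-stranded RNA and keeps cellular RNA from being sensed, had 29.4, 28.8 and 23.4 TPM against 25.4, 25.8 and 20.7 TPM (difference -0.18, 95% interval -0.55 to 0.20). The groups overlapped for both enzymes.

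BST2 (ENSG00000130303.13, chromosome 19, positions 17402939 to 17405648), or tetherin, a membrane protein that holds budding virus particles on the cell surface, had the highest estimate of the 30 tested genes. It had 56.3, 66.1 and 94.6 TPM in scrambled ASO replicates 1 to 3 and 170.5, 138 and 98.4 TPM in MYH7B ASO replicates 2 to 4. Every MYH7B ASO library lay above every scrambled ASO library, although the nearest 2 libraries were only 94.6 and 98.4 TPM. The mean was 72.4 ± 19.9 TPM (SD, n = 3) against 135 ± 36.1 TPM (SD, n = 3). The difference in log2(TPM + 1) was 0.89 (standard error 0.25), a ratio of 1.86, and did not pass over all genes (limma adjusted p = 0.137, unadjusted p = 0.00627). When only protein-coding nuclear genes were kept and rescaled, an alternative chosen after the data were seen, BST2 was the 1 gene of the group that was called (0.93, limma adjusted p = 0.0341), against 3.15% of all genes in that fit. The authors' deposited table listed BST2 as higher by a log2 fold change of 0.83 (standard error 0.18, adjusted p-value 1.58e-04). MYH7B ASO replicate 1, after reordering, had 172 TPM of BST2, also above every scrambled ASO library.

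The other effectors with the highest estimates were ISG15, IFIT5, IFI35 and IFITM1. ISG15 (chromosome 1, positions 1001138 to 1014540), a ubiquitin-like protein attached to other proteins after interferon exposure, had 15.2, 10.5 and 13.3 TPM against 28.1, 21.3 and 14.3 TPM. MYH7B ASO replicates 2 and 3 were above the scrambled ASO range and replicate 4 was within it. Its difference of 0.63 (standard error 0.25) did not pass (limma adjusted p = 0.287). IFIT5 (chromosome 10, positions 89414586 to 89421001), an RNA-binding protein of the IFIT family, had 3.14, 3.84 and 5.14 TPM against 7.89, 6.21 and 6.07 TPM, with no overlap. Its difference of 0.63 did not pass (limma adjusted p = 0.231). It did pass in the authors' deposited table (0.62, adjusted p-value 0.0492). MYH7B ASO replicate 1 had 3.03 TPM of IFIT5 after reordering, below every scrambled ASO library, so IFIT5 overlapped once that library was counted. With the 7 libraries the IFIT5 difference was 0.39 (limma adjusted p = 0.584).

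IFITM1 (chromosome 11, positions 313506 to 315272), a relative of IFITM3 at the cell surface, had 76.9, 84.1 and 115 TPM with the scrambled ASO and 169, 129.98 and 98.4 TPM with the MYH7B ASO. Its difference of 0.51 did not pass (limma adjusted p = 0.332), nor did the value of 0.50 in the authors' deposited table (adjusted p-value 0.0591). IFITM2 had 93.7, 119 and 173 TPM against 140.2, 167 and 122 TPM, and IFITM3 had 562, 633 and 859 TPM against 735, 910.5 and 606 TPM. For IFITM2 and IFITM3 the groups overlapped, with differences of 0.19 and 0.14. The 3 IFITM genes are close paralogs side by side on chromosome 11, and IFITM1 lies within the annotated span of IFITM2, so the division of reads among them is uncertain.

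The remaining tested effectors had differences from -0.37 (SAMHD1) to 0.53 (IFI35), and their groups overlapped. SAMHD1, an enzyme that degrades deoxynucleotides, had 8.15, 8.07 and 5.41 TPM against 7.14, 5.11 and 3.99 TPM. IFI35 had 2.36, 5.10 and 5.05 TPM against 6.94, 6.98 and 4.95 TPM. IFI6 had 39.7, 40.2 and 55.9 TPM against 50.3, 52.6 and 44.3 TPM, a difference of 0.13 (95% interval -0.27 to 0.52). Estimates within the IFIT family differed: beside IFIT5, the estimate was 0.40 for IFIT1 and -0.05 for IFIT3, and IFIT2 was at 0.469 to 1.54 TPM in one group and 0.227 to 1.31 TPM in the other. LIPA overlaps IFIT1, IFIT2 and IFIT3 on the other strand in the annotation used here, so the source of reads there is uncertain. IFI27, often among the most strongly induced interferon genes, had 0.128, 1.48 and 3.64 TPM with the scrambled ASO and 1.88, 1.92 and 1.94 TPM with the MYH7B ASO. MX1, an antiviral GTPase, had 1.69, 0.371 and 0.705 TPM against 0.313, 0.724 and 1.46 TPM. ISG20, an RNA exonuclease below the limit for testing, had 0, 0.527 and 0.0276 TPM against 0.650, 0.724 and 0.557 TPM. Of the 9 untested genes only ISG20 had groups that did not overlap, and its nearest libraries were at 0.527 and 0.557 TPM. The share of all untested genes without overlap was not computed.

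Summed over the 20 effectors, the level averaged 1064 ± 245 TPM in the scrambled group and 1266 ± 226 TPM in the other (SD, n = 3 each). IFITM3 alone made up 61.6% of that sum. Without the 3 IFITM genes the sums were 137, 147 and 192 TPM against 285, 245 and 188 TPM, and BST2 made up 52.2% of them. BST2, IFITM1 and ISG15 were each highest in replicate 2 and lowest in replicate 4 of the 3 MYH7B ASO libraries compared. With the scrambled ASO, BST2 and the 3 IFITM genes were each highest in replicate 3, the library with the lowest mitochondrial share (27.4%), whose part was not tested.

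**Figure D3:**
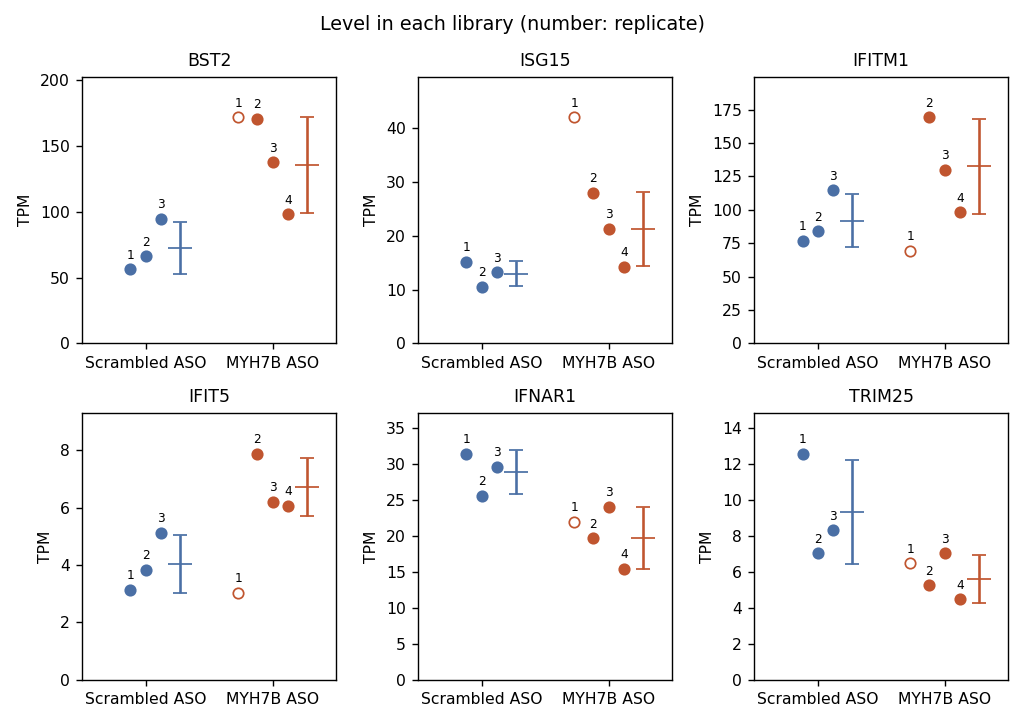
TPM of 6 genes in each library, with filled points for the libraries compared, an open point for MYH7B ASO replicate 1 after reordering, and bars for the mean and SD of the filled points. BST2 is higher in all 4 MYH7B ASO libraries, IFIT5 in all but replicate 1, and IFNAR1 is lower in all 4.

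The promoters of the 39 genes were read for the interferon-stimulated response element. Windows of 300 bases, 250 before and 50 after the start of the gene in RefSeq (GRCh38.p14), were found for 32 of the 39 genes. They were not found for IFIT2, IFITM2, OAS2, IRF3, IRF7, HLA-E and IFNAR2. The element was searched on both strands as GAAA, any 2 bases and GAAA again, with overlapping matches allowed, and 19 of the 32 windows held it (59.4%), against 3.65% of 27305 windows of that length in RefSeq. By role it was found in 14 of 17 effectors, 3 of 6 sensors and regulators, 2 of 4 antigen presentation genes and 0 of 5 receptor, kinase and transcription factor genes. Among these 5, the JAK1 stretch (chr1:65067747-65067946) lay outside and upstream of the span annotated for JAK1 (64833229 to 64966504, minus strand). It need not be the promoter of JAK1 in the annotation used here. The gamma-activated site, another promoter element of interferon signalling, was searched as TTCNNNGAA, which reads alike on both strands and can overlap the first element. It was in 8 of the 32 windows (25%), against 7.88% of all windows. A match, or the lack of one, is a description of the letters only. Forms with another spacing were not counted. The windows of OAS1 and IFI35, which had no match, hold GAAACGAAA and GAAATGAAA. The genes were listed as interferon and sensing genes, so a share above that of all windows can follow from that choice. The 200 bases before the start are shown 5′ to 3′ on the gene's strand for 4 effectors that had a high estimate and a match. OAS3 is also shown, which had the element but ranged from 0.102 to 0.915 TPM. IFI35, whose estimate (0.53) was above that of IFITM1 (0.51), had no match and is not shown. Capitals mark a match to the first element on either strand, which reads TTTC, any 2 bases and TTTC where it lies on the other strand.
BST2: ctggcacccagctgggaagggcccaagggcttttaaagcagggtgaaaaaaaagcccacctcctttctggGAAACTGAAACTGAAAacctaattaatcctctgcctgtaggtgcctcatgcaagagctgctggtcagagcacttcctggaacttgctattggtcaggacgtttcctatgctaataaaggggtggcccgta
ISG15: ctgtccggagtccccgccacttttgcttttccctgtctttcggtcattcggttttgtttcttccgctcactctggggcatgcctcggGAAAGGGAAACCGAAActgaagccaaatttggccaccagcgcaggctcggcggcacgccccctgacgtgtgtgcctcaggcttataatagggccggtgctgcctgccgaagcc
IFIT5: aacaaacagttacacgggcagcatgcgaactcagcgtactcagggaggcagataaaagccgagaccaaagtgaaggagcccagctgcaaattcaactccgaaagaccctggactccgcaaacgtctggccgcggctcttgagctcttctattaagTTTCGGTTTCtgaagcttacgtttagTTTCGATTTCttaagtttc
IFITM1: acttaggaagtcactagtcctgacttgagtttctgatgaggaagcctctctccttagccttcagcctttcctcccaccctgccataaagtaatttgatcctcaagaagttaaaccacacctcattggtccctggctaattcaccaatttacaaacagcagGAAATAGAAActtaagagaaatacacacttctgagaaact
OAS3: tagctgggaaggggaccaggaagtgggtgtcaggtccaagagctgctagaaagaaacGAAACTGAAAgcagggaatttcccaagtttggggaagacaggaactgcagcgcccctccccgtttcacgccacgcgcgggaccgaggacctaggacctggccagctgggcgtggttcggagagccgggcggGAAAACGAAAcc
These stretches lie at chr19:17405631-17405830 (minus strand), chr1:1013297-1013496, chr10:89414368-89414567, chr11:313840-314039 and chr12:112938274-112938473 (plus strand). In BST2 and ISG15 the capitals run through 2 overlapping matches that start 6 bases apart, an arrangement also found in B2M, TAP1 and IFIH1. IFIT5 had 3 matches and IFITM1 had 2 in the whole window, and in each gene the last of them reaches past the start and is not shown.

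Genes with the element included both abundant genes and genes too low to test. Of the 19 genes with a match, 13 were tested and 6 were too low, and 10 of the 13 had an estimate above 0. Their differences ran from -0.34 (EIF2AK2) to 0.89 (BST2), with a median of 0.31. Of the 13 genes without a match to the letters searched, 12 were tested, 6 with an estimate above 0 and 6 below. Their differences ran from -0.71 to 0.53, with a median of -0.09. Elements of another form may be present in these windows. The 4 lowest estimates of the 30 (HLA-B, TRIM25, IFNAR1 and SAMHD1) all belonged to genes whose window held no match. The next lowest, EIF2AK2 (-0.34, beside -0.37 for SAMHD1), had a match, so the split does not hold beyond those 4. The IFNAR1 window is among those not matched to a transcript. Whether the element bears on the direction of a difference was not tested. None of the genes in either set was called. B2M carries the same pair of overlapping matches as BST2 and ISG15 and had a difference of -0.14.

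**Figure D4:**
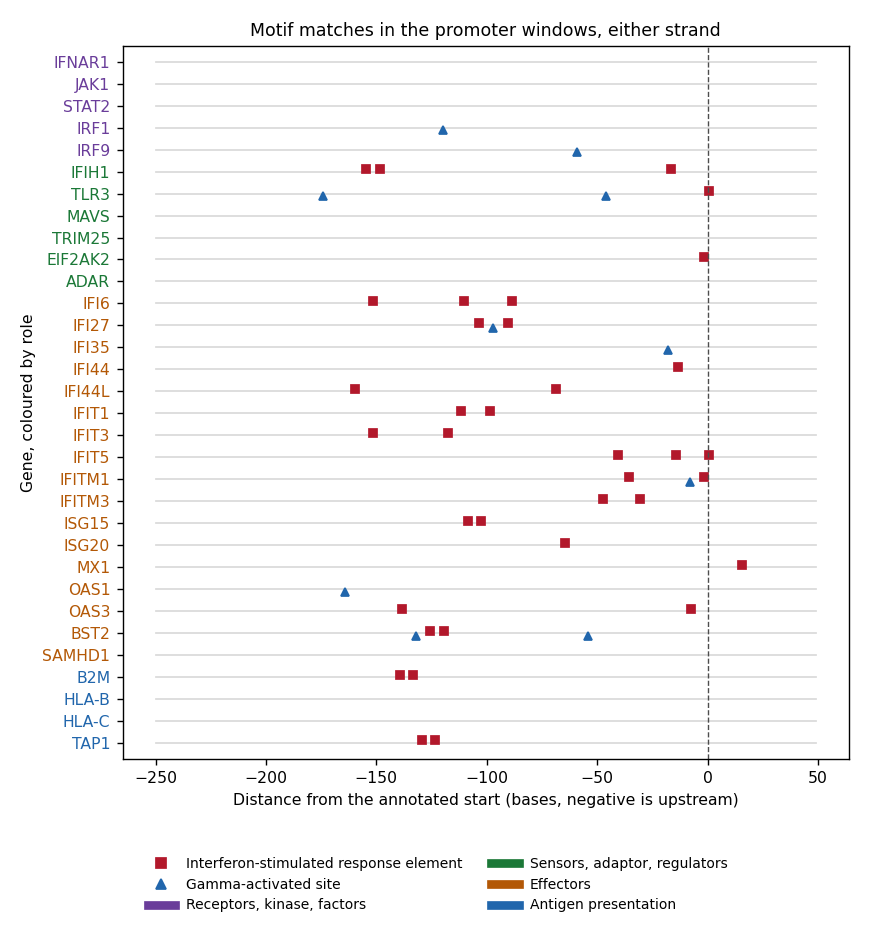
Matches to the interferon-stimulated response element (squares) and the gamma-activated site (triangles) on either strand of the promoter windows of 32 genes, by distance from the annotated start in bases. Effector genes hold most of the squares (14 of 17 windows), and the receptor, kinase and factor windows at the top hold none. Among the latter, the windows of IFNAR1 and JAK1 were not matched to a transcript.

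Antigen presentation genes, which interferon raises in most cell types, had no common direction, and 4 of the 5 averaged 10 TPM or more. B2M (chromosome 15, positions 44711487 to 44718877) had 415, 409 and 586 TPM with the scrambled ASO and 391, 514 and 371 TPM with the MYH7B ASO (difference -0.14, 95% interval -0.56 to 0.29). HLA-B, a class I heavy chain, had 116, 65.3 and 178 TPM against 37.0, 108 and 74.7 TPM. Its difference of -0.71 was the lowest of the 30 estimates and also one of the least precise (standard error 0.44, limma adjusted p = 0.492). Single libraries moved it: it was -0.29 without MYH7B ASO replicate 2, where TRIM25 was lower (-0.60), -0.37 without scrambled ASO replicate 3, and -1.09 without scrambled ASO replicate 2. HLA-C had 59.3, 47.1 and 80.8 TPM against 67.3, 65.3 and 51.9 TPM (difference 0.0051). HLA-E, a ligand of natural killer cell receptors, had 20.2 ± 4.03 and 19.6 ± 4.13 TPM (SD, n = 3 each). TAP1, a subunit of the peptide transporter, had 2.11, 1.53 and 3.69 TPM against 3.80, 4.35 and 2.45 TPM (difference 0.42, 95% interval -0.30 to 1.14). The groups overlapped for all 5 genes. HLA class I genes are polymorphic close relatives, and the annotated spans of HLA-B and HLA-C overlap, so the division of reads among them is uncertain.

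A wider list of 110 other pathway genes was examined in the same fit, and 72 were expressed highly enough to test. None was called by limma, 6 (8.33%) had an unadjusted p under 0.05 (2 higher and 4 lower), against 15.2% of all tested genes, and the groups did not overlap for 11 (15.3%), against 21.2%. The median difference was -0.07. The authors' deposited table gave an adjusted p-value for 74 of them and listed 5 under 0.05 (6.76%), against 8.71% of all 15527 genes with one. Of those 5, 2 were higher and 3 lower. This share, like that of the 39 genes, was not above the background.

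Other sensors were read at the RNA level only, and detection itself was not measured. TLR8 was listed at 0 in all 6 libraries, TLR7 did not exceed 0.274 TPM and TLR9, the receptor for unmethylated CpG DNA, did not exceed 0.248 TPM. CGAS was at most 0.117 TPM, while STING1, its partner, had 22.4, 22.5 and 33.0 TPM against 29.2, 38.2 and 21.6 TPM. DDX58, or RIG-I, had 3.66, 1.67 and 2.64 TPM against 2.25, 2.47 and 1.69 TPM. The interferon-induced genes OASL and CXCL11 were listed at 0 in all libraries, and RSAD2 did not exceed 0.0491 TPM. CXCL10, an interferon-induced chemokine, was listed at 0 in all 3 scrambled ASO libraries and at 0.136, 0.160 and 0.371 TPM in MYH7B ASO replicates 2 to 4, too low to test. Its groups did not overlap, and neither did those of IFNK and, in the other direction, IRF5 and GBP5, all untested. These values are near 0, and the share of all untested genes without overlap was not computed, so nothing is read from them. IRF5 had 0.288, 0.652 and 0.679 TPM against 0.0593, 0.186 and 0 TPM, and GBP5 had 0.242, 0.289 and 0.328 TPM against 0.172, 0.0887 and 0.0823 TPM.

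Of the 11 tested genes of the wider list without overlap, 4 were higher and 7 lower with the MYH7B ASO, where 7.11% and 14.1% of all tested genes were so. GBP4, an interferon-induced GTPase, had 0.899, 1.93 and 1.05 TPM against 4.17, 3.10 and 2.72 TPM (difference 0.93, limma adjusted p = 0.199). GBP4 passed in the authors' deposited table (0.91, adjusted p-value 0.00384). UBE2L6, the conjugating enzyme for ISG15, had 52.0, 49.1 and 53.7 TPM against 77.7, 63.2 and 57.7 TPM (difference 0.34, limma adjusted p = 0.329). None of the 4 higher genes passed in limma. TBK1, a kinase that activates IRF3, had 5.35, 6.001 and 5.58 TPM against 8.96, 8.14 and 6.36 TPM (difference 0.40). EPSTI1 had 7.49, 5.18 and 7.64 TPM against 8.37, 7.67 and 8.90 TPM (difference 0.28), its nearest libraries almost touching. UNC93B1, the chaperone of endosomal Toll-like receptors, was lower, with 10.6, 4.67 and 7.26 TPM against 3.40, 4.31 and 2.64 TPM (difference -0.89, limma adjusted p = 0.203). TRAF3, an adaptor between sensors and kinases, had 4.82, 6.32 and 5.94 TPM against 3.42, 3.80 and 2.82 TPM (difference -0.62, limma adjusted p = 0.211). PIAS1, an inhibitor of STAT proteins, had 26.6, 29.4 and 21.2 TPM against 12.9, 17.96 and 19.7 TPM (difference -0.59). TRIM56, a ubiquitin ligase, had 8.32, 7.06 and 8.63 TPM against 5.94, 5.57 and 4.15 TPM (difference -0.54). The other 3 lower genes also lay close together at the edges of their groups. SP100 had 4.63, 5.64 and 4.96 TPM against 1.03, 4.61 and 3.46 TPM (difference -0.71). STAT3 had 80.7, 72.0 and 80.4 TPM against 71.0, 61.0 and 55.3 TPM (difference -0.32). TRAF6 had 5.76, 6.88 and 4.68 TPM against 4.47, 3.88 and 4.52 TPM (difference -0.35). None of these 5 passed in limma. Of all these, the authors' deposited table listed UNC93B1, TRAF3 and TRIM56 as lower (adjusted p-values 0.0415, 0.00915 and 0.0134) and GBP4 as higher.

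MYH7B ASO replicate 1, read after reordering, was nearer to the other MYH7B ASO libraries for some genes and to the scrambled ASO libraries for others. ISG15 was 42.0 TPM and GBP4 6.35 TPM in it, each above every other library, and IFNAR1 was 21.9 TPM, below every scrambled ASO library. UNC93B1 (8.50 TPM), TRAF3 (6.21 TPM) and TRIM56 (8.51 TPM) were instead within the scrambled ASO range. IFITM1 was 69.3 TPM and B2M 234 TPM, below every other library. HLA-B and HLA-C were 15.6 and 5.02 TPM, below every other library, while HLA-E was 31.4 TPM, above every other library. With this library included, again none of 30 tested genes of the group was called, against 1.07% of 15822 genes.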

How the data were processed

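Poly-A RNA sequencing of 7 libraries was deposited as TPM in 1 table, named by the description labels, with each column summing to 1000000. Per the submitters' processing notes, GRCh38.p13 and DESeq2 were used; the aligner and quantifier are not given in the sources used here. The authors' deposited comparison table holds, per the file headers, a mean normalized count signal, a log2 fold change (shrunken, per the file's name) with its standard error on the log2 scale, a test score, and p-values and adjusted p-values. Its log2 fold changes are quoted only as the authors' values. The depth of each library is unknown, since TPM keeps none, so no counting interval is given.

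The column of MYH7B ASO replicate 1 has values in its first 58721 rows, and the last 1513 are empty. As deposited, its median correlation with the other libraries (log2(TPM + 1), across genes) was 0.408. With the 58721 gene identifiers of GENCODE 29 sorted and assigned in turn it was 0.955, and 0.416 after a shift of 1 position. The annotation behind it is not given in the sources used here, and it was left out of the comparison.

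Genes averaging 1 TPM or more in the 6 libraries entered a fit on log2(TPM + 1) in limma 3.58.1 (R 4.3.3), with lmFit and eBayes, an intensity trend, no covariate and Benjamini-Hochberg adjustment over all tested genes at 0.05. This scale understates changes of low genes. Intervals are limma's 95% intervals. An exact test of 3 against 3 libraries cannot go below 0.1, so none was run. The fit was tested on simulated data. Tables and plots were made with matplotlib 3.10.9, numpy 2.4.6 and pandas 2.3.3 under Python 3.11.15. Positions of genes come from GENCODE 29 (GRCh38). The last 25 bases of the promoter window were found in a GENCODE 29 transcript of the same gene for 30 of 32 genes, and not for IFNAR1 and JAK1.

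The 39 genes, their roles, the 110 other genes, the markers and the motifs were chosen with earlier results of these data known. Values in every library are given for tested genes of the 39 without overlap between groups, the 8 with the highest mean, the 5 highest and 5 lowest estimates, and receptors and sensors. Others were added for their role in the pathway after their values were seen, as were those of MYH7B ASO replicate 1. Some genes of the wider list are not reported by name here. Title numbers are shared by 2 pairs of the 6 libraries, and so are description numbers. Deviations from the group means had an average correlation of 0.093 within title pairs and -0.0558 within description pairs. It was -0.0149 over the 5 pairs sharing neither number. The 2 title pairs (0.0759 and 0.11) were the highest of all pairs. With only 2 pairs of each kind, a pairing can be neither shown nor excluded. The numbers were not taken as pairs in the reported fit.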

Additional observations from a re-analysis of the deposited data

Results flagged for a closer look

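In the MYH7B ASO group of 4 libraries, with replicate 1 reordered, each of the 30 tested genes was searched for 1 library lying apart from the remaining 3, and 2 had one, in both cases replicate 1. Chance gives about 1 in 20. IFNAR2 was 15.4 TPM in replicate 1, against 7.46 to 8.72 TPM in the others. IFI27 was 0.406 TPM in replicate 1, against 1.88 to 1.94 TPM in the others. Its column was deposited in another row order, whose part in these values was not tested.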

How the results depend on the processing

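Across 19 alternatives, no interferon or sensing gene was called in 18, and 1 (BST2) was called over protein-coding nuclear genes. The number at an unadjusted p under 0.05 ran from 1 to 7. The count of all called genes, 265 as reported, was 40 with no filter on low values, 150 without a variance trend, 170 with the 7 libraries and 429 over protein-coding nuclear genes, and 53 to 149 when any one library was left out. Of the called genes, 29 of 265 were higher as reported, 55 of 257 after quantile normalization and 99 of 429 over protein-coding nuclear genes. A replicate block, whether from title or description numbers, left 0 genes called by limma, and only 2 pairs of libraries share a number. At an unadjusted p under 0.05 the title block had 4 and the description block had 1 of the 30 genes of the group. MYH7B, called as reported, was not called with either block (-1.92 and -2.17, limma adjusted p = 0.331 and 0.720), without a filter (0.0779), with the 7 libraries (-2.30, 0.0525) or without MYH7B ASO replicate 4 (0.0618). The estimates of BST2 (0.55 to 1.11), ISG15 (0.42 to 0.99), IFIT5 (0.38 to 0.78), IFNAR1 (-0.69 to -0.33) and TRIM25 (-0.79 to -0.29) kept their direction under all 19. Estimates near 0 changed sign. HLA-C was -0.837 with the 7 libraries and -0.0825 with the description block, and leaving out 1 library gave -0.177 to 0.206, below 0 in 4 of 6 cases. IFITM2 was -0.00505 with the description block, and leaving out 1 library gave -0.0137 (scrambled ASO replicate 1) to 0.425. The same range was -0.0130 (MYH7B ASO replicate 3) to 0.311 for IFITM3 and -0.283 to 0.0294 (scrambled ASO replicate 3) for B2M. The cause of these moves was not tested. The median over the group ran from 0.01 to 0.20. Depth is unknown and 3 libraries a group limit the precision.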
